A study of Mus musculus with 6 samples.

Results

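Gfi1 and Gfi1b encode a pair of related zinc finger repressors, GFI1 and GFI1B, which recruit the histone demethylase LSD1 (gene Kdm1a). They were examined here in mouse leukemia cells treated with an LSD1 inhibitor. The 2 genes were taken by their symbols from the 15035 rows of a deposited table of gene expression. They were chosen by their change between the groups in these same libraries, so their own values are given as a description and without a test. The cells came from the bone marrow of BALB/c mice and were made leukemic by retroviral expression of mutant CSF3R, a growth factor receptor of the neutrophil line, together with mutant CEBPA, a myeloid transcription factor. Both groups carried both mutants and were grown in IMDM with serum. The 3 control libraries came from cells treated with DMSO, the solvent, and the 3 treated libraries from cells given 4 nM GSK-LSD1, an inhibitor of LSD1, for 48 h. The labels name neither the individual mutations nor how many transduced cultures were used, and they do not say whether libraries of a group are separate cultures. The p-values therefore compare the difference between the groups only with the spread among these samples, and that spread may be technical.

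GFI1 and GFI1B share a short SNAG domain at the start of the protein and zinc fingers at its end that bind DNA with the core letters AATC. The SNAG domain resembles the tail of histone H3 and docks in the active site of LSD1, which brings the corepressor CoREST (Rcor1) and histone deacetylases to the bound genes. GFI1 is known for its part in neutrophil formation, where it restrains monocyte genes, and in lymphoid cells. GFI1B is known for its part in red cell and megakaryocyte formation. Each protein can repress both its own gene and that of the other.

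The promoter sequences of the 2 genes are shown because binding of the GFI1 proteins to Gfi1 and Gfi1b is part of that known circuit. Both sequences are from RefSeq, build GRCm38.p6, and run 5′ to 3′ along the minus strand, which carries both genes, up to the base before the start of the transcript. Capitals mark every match, on either strand, of 3 motifs: the GFI1 core AATC, the GATA factor motif GATAAG and the NF-Y box CCAAT. The Gfi1b sequence covers 250 bases at chr2:28621983-28622232. The Gfi1 sequence covers 149 bases at chr5:107725806-107725954, since farther upstream bases belong to an exon of another Gfi1 transcript.
Gfi1b: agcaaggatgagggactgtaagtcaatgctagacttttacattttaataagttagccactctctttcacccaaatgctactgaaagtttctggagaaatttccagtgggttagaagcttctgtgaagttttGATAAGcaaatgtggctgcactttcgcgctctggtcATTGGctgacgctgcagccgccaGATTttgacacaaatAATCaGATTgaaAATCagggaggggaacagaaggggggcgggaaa
Gfi1: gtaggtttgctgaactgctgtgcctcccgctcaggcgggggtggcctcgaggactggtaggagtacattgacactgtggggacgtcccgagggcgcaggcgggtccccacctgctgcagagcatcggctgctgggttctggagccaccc
The Gfi1b promoter held 4 matches of AATC, which lay 60, 45, 40 and 33 bases before the start. The matches at 60 and 40 bases were on the opposite strand and appear as GATT. Of 32851 promoter windows of the same length, 69.0% held at least 1 AATC and 7.04% held at least as many as Gfi1b. The Gfi1b window also held GATAAG 119 bases before the start, a motif found in 6.55% of the windows. It held CCAAT once, on the opposite strand (ATTGG), 83 bases before the start, a motif found in 33.8% of the windows. None of the marked matches overlapped another. The 149 bases before the Gfi1 start used here held none of the 3 motifs. Neither did the 250 bases before a second annotated Gfi1 start, at chr5:107724344-107724593. Gfi1 is annotated up to base 107726036, and the bases before that most upstream start were not scanned. Of windows of 149 bases, 50.9% held AATC, 3.73% GATAAG and 24.3% CCAAT. Such a match is a match of letters and not a measured binding site.

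Gfi1 lies on chromosome 5 (107716657 to 107726036, GRCm38, minus strand) and its merged exons span 3187 bases. Its scaled read count, the deposited unit, was 63.5, 61.4 and 71.7 in the 3 DMSO libraries. It was 561, 537 and 560 in the 3 GSK-LSD1 libraries. Every treated library thus lay far above every control library, and the groups did not overlap. The mean was 65.5 ± 5.42 (SD, n = 3) with DMSO and 553 ± 13.4 (SD, n = 3) with GSK-LSD1, which is 8.43-fold higher. The lowest treated value over the highest control value was 7.5, and the highest over the lowest was 9.13. An antisense transcript, A430072P03Rik, overlaps the exons of Gfi1. Whether the counting used strand is not given in the sources used here, so reads from the 2 genes may not be told apart.

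Gfi1b lies on chromosome 2 (28609450 to 28621982, GRCm38, minus strand) and its merged exons span 1830 bases. Its scaled read count was 625, 673 and 639 in the DMSO libraries. It was 4871, 4916 and 4615 in the GSK-LSD1 libraries. The groups again did not overlap. The mean was 646 ± 24.6 (SD, n = 3) with DMSO and 4800.4 ± 162 (SD, n = 3) with GSK-LSD1, which is 7.44-fold higher, with a range over single libraries of 6.86 to 7.86. Of the 11588 genes tested, 24.7% had treated libraries that all lay above all control libraries, which is the background for both genes and was part of how they were chosen.

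**Figure D1:**
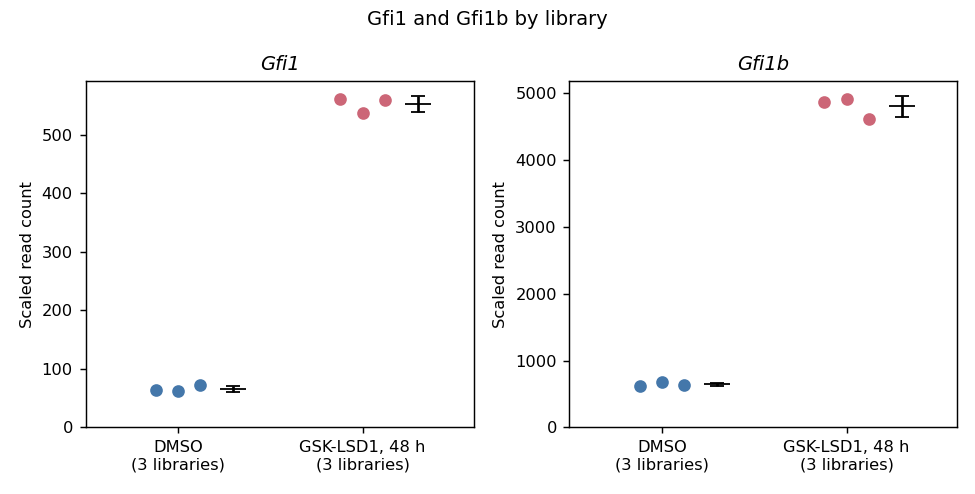
Scaled read counts of Gfi1 (left) and Gfi1b (right) on separate linear axes that start at 0. Points are single libraries, 3 per group, and the bars beside them give the mean ± SD. The treated points of Gfi1 lie between 537 and 561 and those of Gfi1b between 4615 and 4916, above all control points.

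The control values of Gfi1 rested on 62 to 72 reads per library and the treated values on 519 to 575, taking each library's lowest value above 0 as 1 read. For Gfi1b the control values rested on 640 to 679 reads and the treated values on 4742 to 4774. Counting error alone would give an SD of 8.05 for Gfi1 and 25.3 for Gfi1b with DMSO, against the measured 5.42 and 24.6. With GSK-LSD1 the SD of Gfi1 was below its counting error of 23.6, while that of Gfi1b was above its counting error of 69.6. The treated Gfi1b spread came mainly from replicate 3, the lowest of the 3.

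Gfi1b was the more abundant transcript of the pair in both conditions once exon length was taken into account. Per kb of merged exon, the level of Gfi1 was 20.6 ± 1.70 (SD, n = 3) with DMSO and 173 ± 4.20 (SD, n = 3) with GSK-LSD1. The level of Gfi1b per kb was 353 ± 13.4 (SD, n = 3) with DMSO and 2623 ± 88.5 (SD, n = 3) with GSK-LSD1. The ratio of Gfi1b to Gfi1 per kb was 17.1, 19.1 and 15.5 in the DMSO libraries and 15.1, 15.9 and 14.4 in the GSK-LSD1 libraries. Those ranges overlapped, with means of 17.2 ± 1.77 and 15.1 ± 0.787 (SD, n = 3 each). The proportion between the 2 transcripts thus moved by far less than either level. Gfi1 made up 5.51% ± 0.534 (SD, n = 3) of the summed per-kb level of the pair with DMSO and 6.21% ± 0.302 (SD, n = 3) with GSK-LSD1. In bulk RNA, more cells with a transcript and more transcript per cell cannot be told apart.

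Among the 11133 tested genes with a known exon length, Gfi1b moved from rank 1573 by per-kb level with DMSO to rank 114 with GSK-LSD1. Gfi1 moved from rank 8677 to rank 3124. Gfi1 was thus in the lower part of the expressed range in control cells, with 22.1% of the genes below it, and had 71.9% below it after treatment. Gfi1b had 85.9% of the genes below it in control cells and 99.0% after treatment.

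In the order of log2 fold change, computed from log2(value + 1), Gfi1 was number 39 of 11588 at 3.06 and Gfi1b was number 46 at 2.89. Directly above Gfi1 were Tbc1d9 (3.11), Gsap (3.10) and Maged1 (3.09), and directly below it Emp1 (3.05), Gcnt2 (3.01) and Scpep1os (2.95). Directly above Gfi1b were Auts2 (2.95), Wfdc17 (2.95) and Islr2 (2.93), and directly below it Rin2, Acta2 and Mmp9 (2.89 each). Of these 12 neighbours in the order, 10 had a DMSO mean under 10, so Gfi1 and above all Gfi1b were changed from a higher control level than the genes around them. Among the 4625 genes with a DMSO mean of at least 500, a limit set after the values were seen, 1 had a larger log2 fold change than Gfi1b. That gene was Clu, which encodes the chaperone clusterin, at 4.04.

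The partners through which the GFI1 proteins act were examined next. Of the 11588 genes tested with limma, 20.6% were higher and 20.5% lower with GSK-LSD1 at a Benjamini-Hochberg adjusted p under 0.05. The median log2 fold change over all tested genes was -0.01. Of 22 tested genes for LSD1 complex members and other GFI1 partners, 7 rose, 3 fell and 12 did not pass, with a median of 0.10. Kdm1a, which encodes LSD1 itself, was 1257 ± 59.6 with DMSO and 1227 ± 16.3 with GSK-LSD1 (SD, n = 3 each), a log2 fold change of -0.03 (SE 0.0518, limma adjusted p = 0.631). The summed per-kb level of Gfi1 and Gfi1b was 1.43, 1.68 and 1.52 times that of Kdm1a in the DMSO libraries. It was 12.1, 11.9 and 11.5 times that of Kdm1a in the GSK-LSD1 libraries. The transcripts of the recruiting factors thus changed in number relative to those of the enzyme. The mean ratio was 1.54 ± 0.128 with DMSO and 11.8 ± 0.324 with GSK-LSD1 (SD, n = 3 each). Merged exons count all annotated transcripts of a gene, so the level of such ratios depends on the annotation more than their change does.

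Apart from Ajuba, the partner genes that passed the test had log2 fold changes between -0.28 and 0.50, against 3.06 and 2.89 for Gfi1 and Gfi1b. Phf21a, which encodes the LSD1 complex subunit BHC80, rose from 259 to 367 (limma log2 fold change 0.50, SE 0.0785, adjusted p = 2.58e-06). Gse1 rose 1.27-fold and Zmym2, a zinc finger partner of LSD1, rose 1.24-fold. Rcor2, a CoREST paralog, fell from 703 to 580 (limma log2 fold change -0.28, adjusted p = 0.000314), while Rcor1 was 877 with DMSO and 929 with GSK-LSD1 and did not pass. Hdac1 and Ctbp2, a deacetylase and a corepressor, were the other genes to fall. Without DMSO replicate 2, GSK-LSD1 replicate 2 or GSK-LSD1 replicate 3, the count of genes that fell went from 3 to 1. Ajuba, which encodes a LIM protein described as a partner of GFI1, was the largest riser of the list. Its values were 11.7, 3.96 and 1.99 with DMSO and 28.6, 30.02 and 21.4 with GSK-LSD1 (limma log2 fold change 2.26, SE 0.393, adjusted p = 1.57e-05), so it remained a low transcript.

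Of 9 other genes for SNAG domain proteins, 3 were tested: none rose, 1 fell and 2 did not pass, with a median of -0.66. Snai3 fell from 24.7 ± 4.22 to 10.7 ± 0.813 (SD, n = 3 each; limma log2 fold change -1.12, adjusted p = 0.00199). Snai1 was 12.5 with DMSO and 13.1 with GSK-LSD1, and Ovol1 was 11.9 and 7.09. All 3 lay near the limit of the filter on low values. Snai2, Scrt1, Insm2 and Ovol2 were too low to test, and Scrt2 and Insm1 were not analysed here.

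Genes that GFI1 is known to repress, listed from general knowledge, came next. Of 15 tested of 20, 5 rose, 2 fell and 8 did not pass, with a median log2 fold change of 0.17. Over all tested genes, 20.6% rose and 20.5% fell. Csf1, the growth factor of monocytes and macrophages, was 257, 239 and 232 with DMSO and 738, 693 and 702 with GSK-LSD1 (limma log2 fold change 1.55, SE 0.0711, adjusted p = 1.44e-19). Its receptor Csf1r was 16.6, 9.91 and 8.96 with DMSO and 54.1, 49.7 and 31.1 with GSK-LSD1 (limma log2 fold change 1.85, SE 0.273, adjusted p = 9.21e-07). Both genes were higher in every treated library than in any control library, as were 24.7% of all tested genes. Irf8, a transcription factor of monocytes and dendritic cells, rose from 33.2 ± 2.73 to 79.4 ± 7.44 (SD, n = 3 each). Id1, an inhibitor of helix-loop-helix factors, rose 1.65-fold and Cebpe, a factor of late neutrophil formation, rose 1.54-fold. Elane, the neutrophil elastase gene, fell from 107 ± 14.2 to 56.5 ± 8.84 (SD, n = 3 each; limma adjusted p = 6.98e-06), and Egr1, an early response factor, fell 1.18-fold. The cell cycle inhibitor gene Cdkn1a was 2071 with DMSO and 2054 with GSK-LSD1 and did not pass. The list's count of rises was 3 where a mean of 50 or more was required, and its count of falls was 1 without GSK-LSD1 replicate 1, when Egr1 did not pass. Cdkn2b, Egr2 and Meis1 were too low to test and Hoxa9 was not analysed here.

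Targets of GFI1B were listed in the same way. Of 11 tested of 14, 3 rose, 4 fell and 4 did not pass, with a median log2 fold change of -0.05. The background was again 20.6% higher and 20.5% lower over all tested genes. Rgs18, a regulator of G protein signalling in platelets, rose from 348 to 456 (limma log2 fold change 0.39, adjusted p = 4.74e-05). Socs3, a brake on cytokine signalling, rose 1.13-fold, a call lost without GSK-LSD1 replicate 2, and Gata2, a stem and progenitor cell factor, rose 1.11-fold. The 4 that fell were Myc, Myb, Gata1 and Rag2, factors of cell growth, of progenitors, of red cells and of antigen receptor rearrangement. Gata1 was 680, 684 and 632 with DMSO and 561, 548 and 532 with GSK-LSD1 (limma log2 fold change -0.28, SE 0.0622, adjusted p = 0.000377). Rag2 fell from 48.1 ± 10.1 to 20.9 ± 3.77 (SD, n = 3 each), and shares exon bases with another gene. Bcl2l1 and Socs1, both described as GFI1B targets, were 184 and 688 with DMSO and 186 and 664 with GSK-LSD1, and neither passed. Meis1 was 1.31 with DMSO and 4.66 with GSK-LSD1, too low to test.

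**Figure D2:**
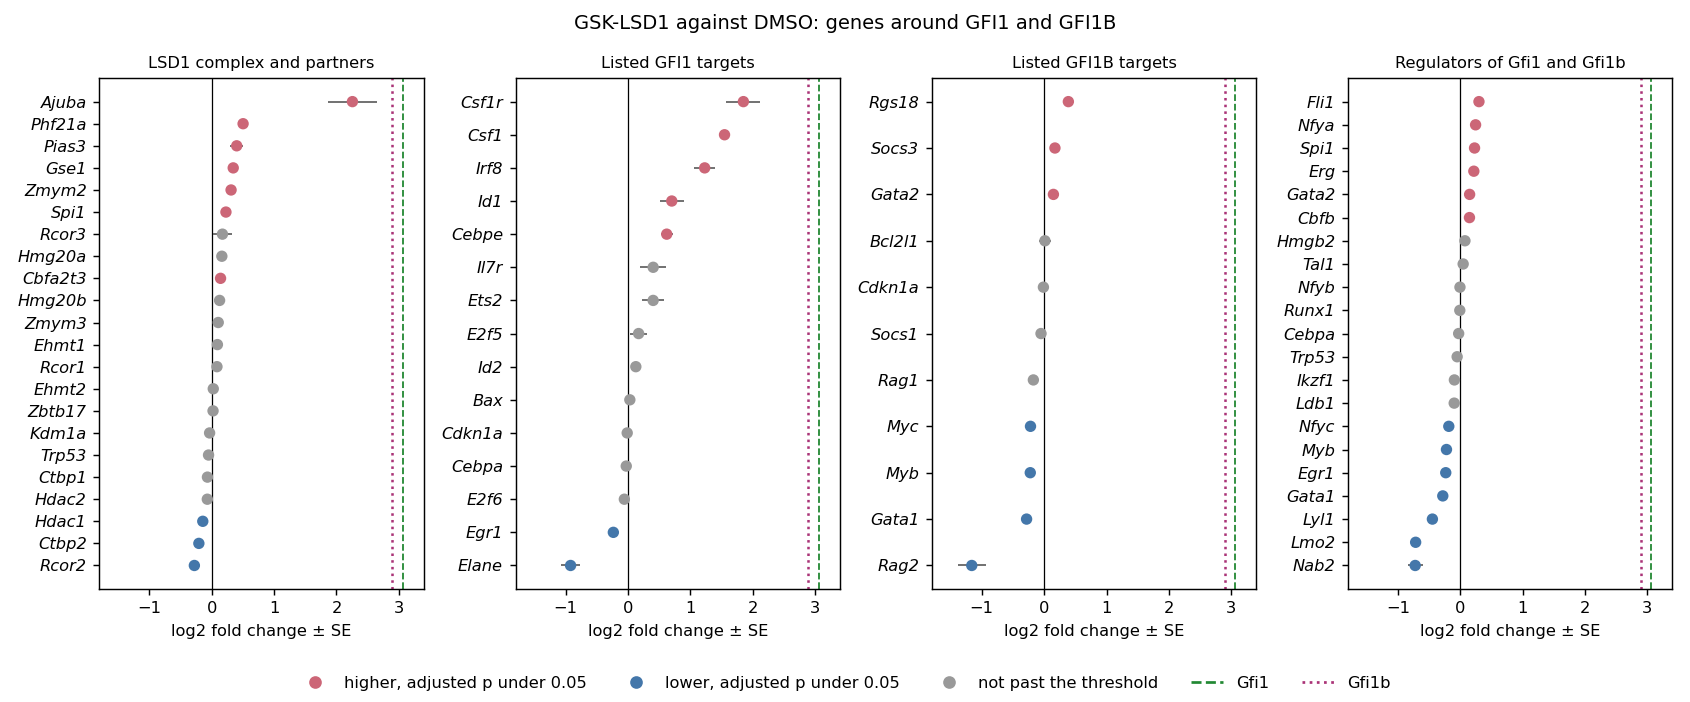
Fitted log2 fold change ± SE, GSK-LSD1 against DMSO, of tested genes in 4 lists: LSD1 complex and partners, listed GFI1 targets, listed GFI1B targets, and regulators of Gfi1 and Gfi1b. The dashed and dotted lines mark Gfi1 (3.06) and Gfi1b (2.89), and every gene of the 4 lists lies to the left of both.

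Regulators that are known to bind at Gfi1 or Gfi1b changed in both directions. Of 21 tested, 6 rose, 7 fell and 8 did not pass, with a median log2 fold change of -0.03. Among all tested genes, 20.6% rose and 20.5% fell. The factors that rose did so by small steps: Fli1, an ETS factor, rose 1.23-fold, Nfya, a subunit of NF-Y, rose 1.18-fold, and Spi1, which encodes PU.1, rose 1.17-fold. The NF-Y subunits did not move together. Nfyc fell from 533 to 470 (limma adjusted p = 0.032), a call lost in 2 alternatives, and Nfyb (408 and 407) did not pass. Larger falls were seen in members of the complex that joins GATA factors to E-box proteins. Lmo2, its bridging protein, was 862, 895 and 864 with DMSO and 498, 520 and 580 with GSK-LSD1 (limma log2 fold change -0.72, SE 0.0626, adjusted p = 9.79e-12). Lyl1, an E-box factor, fell from 1774 to 1300.1 (limma adjusted p = 2.07e-09). Tal1 (1772 and 1829), Runx1 (2831 and 2812) and Ldb1 (1763 and 1647) did not pass. Nab2, a corepressor of EGR factors, fell from 162 to 97.5 (limma log2 fold change -0.72, adjusted p = 8.42e-06). Gata2, Gata1, Spi1, Myb and Egr1 are among the 19 genes that stand in more than 1 list, and are counted in each. Csf1r, Lyl1, Nab2 and Pias3 share exon bases with a neighbouring gene in the annotation, so their reads may be split or joined by the counting.

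Genes on both sides of Gfi1 changed as well. Evi5, which encodes a GTPase-activating protein of the cell cycle and lies 18.8 kb upstream of Gfi1 on the same strand, was 8.79, 7.93 and 15.9 with DMSO and 49.99, 66.2 and 61.3 with GSK-LSD1 (limma log2 fold change 2.39, SE 0.257, adjusted p = 1.39e-09). Its 3 treated libraries lay above its 3 control libraries, as was so for 24.7% of all tested genes. On the downstream side, Rpap2, a phosphatase of RNA polymerase II at 54.8 kb, rose from 114 ± 4.06 to 171 ± 7.13 (SD, n = 3 each; limma log2 fold change 0.58, adjusted p = 4.76e-05). Glmn, at 119 kb, rose from 59.9 to 107 (limma log2 fold change 0.83, adjusted p = 1.63e-05). The gene model 1700028K03Rik, at 165 kb, rose with a log2 fold change of 1.00 (limma adjusted p = 0.000621). Glmn shares exon bases with both Rpap2 and 1700028K03Rik, so these 3 values are not independent of each other. The lincRNA 4930428O21Rik, at 13.2 kb, was too low to test, at 0, 0 and 1.99 with DMSO and 9.18, 5.18 and 8.76 with GSK-LSD1. A930041C12Rik, at 82.8 kb, was also too low to test, at 0.986 ± 0.991 with DMSO and 1.34 ± 1.16 with GSK-LSD1 (SD, n = 3 each), and its groups overlapped.

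All 4 tested genes within 165 kb of Gfi1 were higher with GSK-LSD1, and none of the next 6, from 174 to 543 kb, passed the test. The log2 fold changes of those 6 were -0.09 to 0.04. Rpl5, a ribosomal protein gene at 174 kb, was the nearest of them, at -0.09 (limma adjusted p = 0.118), followed by Fam69a at -0.03 (limma adjusted p = 0.821). These distances, Glmn and 1700028K03Rik were chosen after the values were seen. Over a window of 1000 kb on either side, 7 of 20 tested genes rose and 2 fell, with a median of 0.04. Of all genes tested, 20.6% rose and 20.5% fell.

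Around Gfi1b, the nearest genes Tsc1 at 19.2 kb and Gtf3c5 at 25.7 kb had log2 fold changes of 0.12 and 0.04 (limma adjusted p = 0.188 and 0.67). Ralgds, an exchange factor for Ral GTPases at 56.4 kb, rose 1.26-fold. Ak8, an adenylate kinase gene at 78.2 kb, was 2.93, 2.97 and 1.99 with DMSO and 17.3, 12.4 and 15.6 with GSK-LSD1 (limma log2 fold change 2.15, SE 0.425, adjusted p = 9.32e-05). Ak8 passed the filter on low values through its GSK-LSD1 libraries alone and so had to be higher. Mrps2 and Gtf3c4, at 138 and 200.3 kb, had log2 fold changes of -0.10 and -0.03 and did not pass. Over all tested genes 20.6% rose and 20.5% fell. Within 1000 kb of Gfi1b, 5 of 15 tested genes rose, Ak8 among them, and 1 fell, with a median of 0.10. Whether the 2 loci differ in this respect was not tested.

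**Figure D3:**
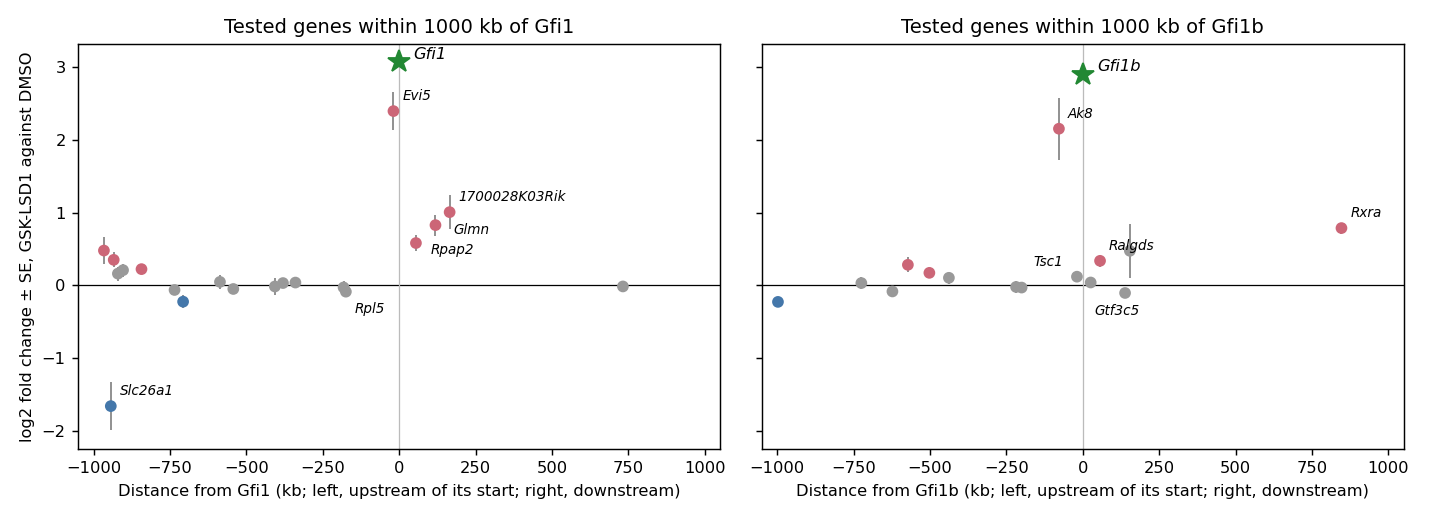
Fitted log2 fold change ± SE of tested genes (red, higher; blue, lower; grey, not past the threshold) by distance in kb from Gfi1 (left) and Gfi1b (right), with the 2 genes as stars without a test. Evi5 and 3 genes on the downstream side of Gfi1 lie above 0.5, and Ak8 stands apart on the upstream side of Gfi1b.

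The genes whose pattern over the 6 libraries was most like that of Gfi1 and Gfi1b were found by Euclidean distance between log2(value + 1) profiles, each minus its own DMSO mean. The 9429 candidates had a mean of 50 or more and a gene name, so gene models and symbols turned to dates were left out. Gfi1 and Gfi1b were 0.372 apart. Among the candidates, a single gene, Emp1, was closer to Gfi1 (0.208), and 3 genes, Emp1 (0.301), Mmp8 (0.322) and Pigz (0.339), were closer to Gfi1b. Emp1, an epithelial membrane protein gene, was 44.8 ± 1.15 with DMSO and 378 ± 19.7 with GSK-LSD1 (SD, n = 3 each). Mmp8, the neutrophil collagenase of secondary granules, was 2376 ± 61.2 and 15579 ± 296 (SD, n = 3 each). After Emp1 the genes most like Gfi1 were Kctd14, Adgre1, Dkk1, Fam198b and Pigz, at distances of 0.451 to 0.543. Adgre1 encodes the macrophage marker F4/80 and rose from 17.4 to 158. After Pigz the genes most like Gfi1b were Clec7a, Bst1 and Kctd14, at 0.376 to 0.471. Clec7a, the receptor Dectin-1 of myeloid cells, rose from 12.5 to 89.8. The distance is set mostly by the size of the change, since it differs between 2 groups of 3 libraries. Ranked by 1 minus Pearson r among genes with a log2 fold change within 0.5 of the member's own, 1 of the 6 genes was shared for Gfi1 and 4 of the 6 for Gfi1b.

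**Figure D4:**
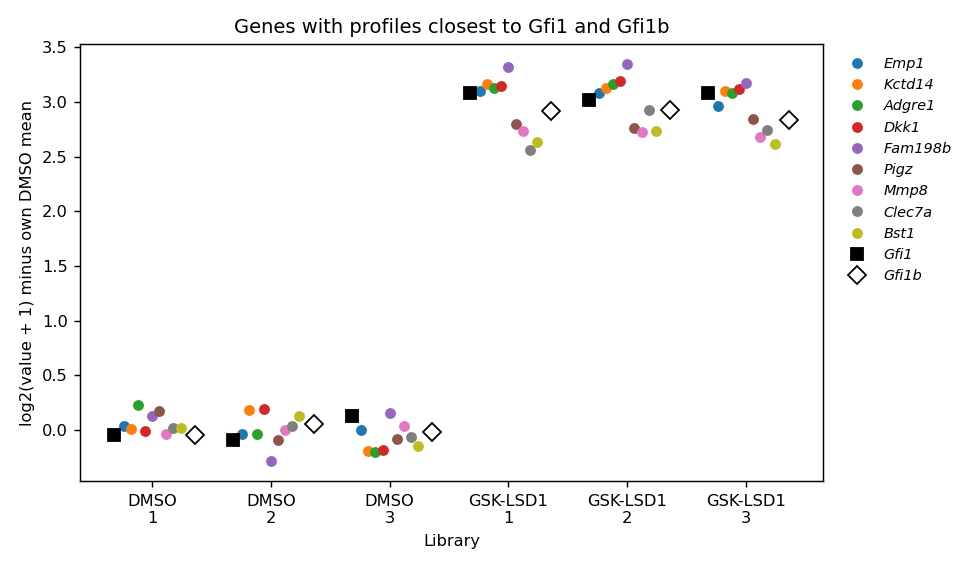
Values of log2(value + 1) minus the gene's own DMSO mean in each of the 6 libraries for Gfi1 (squares), Gfi1b (diamonds) and the 9 candidate genes closest to either. Points are shifted sideways within a library for legibility, and all 11 genes lie near 0 with DMSO and between 2.5 and 3.5 with GSK-LSD1.

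Since GFI1 and GFI1B are markers as well as regulators of several blood lineages, the marker genes of those lineages were set beside them. The background for each list was 20.6% higher and 20.5% lower over all tested genes. Genes of secondary granules and mature neutrophils were mostly higher: of 19 tested, 16 rose, 2 fell and 1 did not pass, with a median log2 fold change of 1.16. The receptor genes Fpr1 and Fpr2 passed the filter on low values through GSK-LSD1 libraries alone, and without them 14 of 17 rose, with a median of 1.09. The list's summed value was 7435 to 8194 per library with DMSO and 26627 to 27717 with GSK-LSD1. Most of the treated sum came from a single gene, Mmp8, with means of 2376 with DMSO and 15579 with GSK-LSD1. Ngp, a granule protein gene, and Chil3, a chitinase-like gene, were the 2 that fell, Ltf, the lactoferrin gene, was 4.94 and 2.01, and Camp was not analysed here. Of 11 primary granule genes, 4 rose and 5 fell, with a median of -0.11 and a summed value of 52688 to 56344 with DMSO and 54571 to 55459 with GSK-LSD1. Most of that sum came from Calr, at 30665 and 28485, which did not pass. Prtn3 fell from 1755 to 1105 (limma adjusted p = 8.7e-13), Ms4a3 from 286 to 129 and Ctsg from 946 to 685. Igsf6 rose from 177 to 338 (limma adjusted p = 6e-11). Prss57, a serine protease, lost its call in 8 alternatives, the replicate block among them, and Serpinb1a, a protease inhibitor, in 2. Of 15 monocyte and macrophage genes, 12 rose and none fell, with a median of 0.87 and a summed value of 15513 to 16325 with DMSO and 18725 to 19045 with GSK-LSD1. Most of that sum came from F13a1, at 12705 and 13880. One of the list's genes fell without DMSO replicate 2, and 2 fell under quantile scaling. Mpeg1 and Ctss, both of macrophages, rose 6.06-fold and 6.86-fold. Klf4 and Mrc1 were low (means of 2.30 and 1.65 with DMSO, 5.08 and 2.01 with GSK-LSD1), and C1qa, C1qb, C1qc and Cd300e were not analysed here.

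In the lineages that GFI1B is known for, the tested genes were a part of each list. Of 13 tested of 21 erythroid genes, none rose, 11 fell and 2 did not pass, with a median log2 fold change of -2.28. Slc4a1, the anion exchanger of red cells, was 49.8 ± 8.82 with DMSO and 1.32 ± 1.48 with GSK-LSD1 (SD, n = 3 each; limma adjusted p = 1.95e-11). Klf1, a red cell transcription factor, fell from 53.1 ± 7.97 to 16.9 ± 4.53 (SD, n = 3 each). Most of these genes were low in the control cells already, and the summed value of the list was 6356 to 6848 with DMSO and 5463 to 5839 with GSK-LSD1, most of it from Tfrc. Of the 13, 6 passed the filter on low values through their DMSO libraries alone and so had to differ, Slc4a1 and Alas2 among them. Without those 6, a choice made after seeing the data, 5 of 7 fell and the median was -0.36. The count of 11 was 4 without DMSO replicate 1, 5 without DMSO replicate 2 or 3, where fewer genes passed the filter, and 2 where a mean of 50 or more was required. The hemoglobin genes Hba-a1, Hba-a2, Hbb-bs and Hbb-bt were not analysed here.

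Of 22 genes of megakaryocytes and platelets, 10 were not tested, and among the other 12, 8 rose and 2 fell, with a median of 0.52. Their summed value was 9219 to 9379 with DMSO and 14966 to 15483 with GSK-LSD1. Thbs1, an adhesive protein of platelet granules, rose from 329 to 1296, Itgb3, an integrin chain, from 657 to 1571, and F2r, the thrombin receptor gene, from 3284 to 6453. Itga2b, the integrin partner of Itgb3 and an early marker of the lineage, fell from 1888 to 1630.1. The defining platelet genes were low: Pf4 was 59.6 and 43.7, and Gp5, Gp6, Gp9 and Gp1bb were under 10. Ppbp was 29.3 and 29.8 and did not pass, while Gp1ba rose from 31.3 to 57.9 (limma adjusted p = 0.000371). Pf4 fell with a limma adjusted p of 0.0436, and the count of 2 was 1 when any library other than DMSO replicate 2 was left out.

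The basophil and mast cell list held both abundant and low genes. Its most abundant gene in both groups was Cpa3, and Fcer1a was 5758 with DMSO and 4518 with GSK-LSD1. Kit was 29.6 with DMSO and 28.1 with GSK-LSD1, and Mitf, Tpsb2 and Il13 also had means under 50 in both groups. Of 18 tested of 20, 8 rose, 2 fell and 8 did not pass, with a median of 0.18 and a summed value of 44875 to 47575 with DMSO and 55793 to 57221 with GSK-LSD1. Cpa3, a mast cell protease, rose from 14320 to 23028, and Tpsab1, a tryptase, was 1.64 with DMSO and 44.4 with GSK-LSD1, while Hdc, which makes histamine, fell from 673 to 302. Tpsab1 passed the filter on low values through its GSK-LSD1 libraries alone, and without it 7 of 17 rose. The cells were labelled as leukemia cells and expressed Mpo (7390 and 8952), a defining enzyme of the neutrophil line, beside these genes. Csf3r was 106 and 434 and Cebpa 4437 and 4332, and reads of the retroviral copies were not separated here from those of the mouse genes. Of 5 tested T and NK cell genes, 1 rose and 2 fell, with a median of -0.37 and a summed value of 11545 to 11867 with DMSO and 8982 to 9272 with GSK-LSD1, mostly from Tcf7. Cd3d was at 0.991 and 0, and Cd3e, Cd4 and Cd8a were not analysed here. The T and NK cell rise, Cd28, was lost where a mean of 50 or more was required and was joined by another gene where no filter was used. Of 3 tested B cell genes, 1 rose and 1 fell, with a median of -0.17 and a summed value of 291 to 334 with DMSO and 267 to 307 with GSK-LSD1, and Cd79a, Cd79b and Ebf1 were near 0. The B cell rise, Cd22, did not count when any GSK-LSD1 library was left out, since it then failed the filter, and neither change was left where a mean of 50 or more was required. All 3 tested stromal and endothelial genes rose, with a median of 0.43 and a summed value of 3782 to 4256 with DMSO and 4674 to 4776 with GSK-LSD1, most of it from Pecam1. Col1a1, a collagen gene, lost its call in 6 alternatives (limma adjusted p up to 0.288), which left 2 rises. Both Gfi1 and Gfi1b are expressed in several of these lineages, and the part of a change in cell makeup in their levels was not tested.

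**Figure D5:**
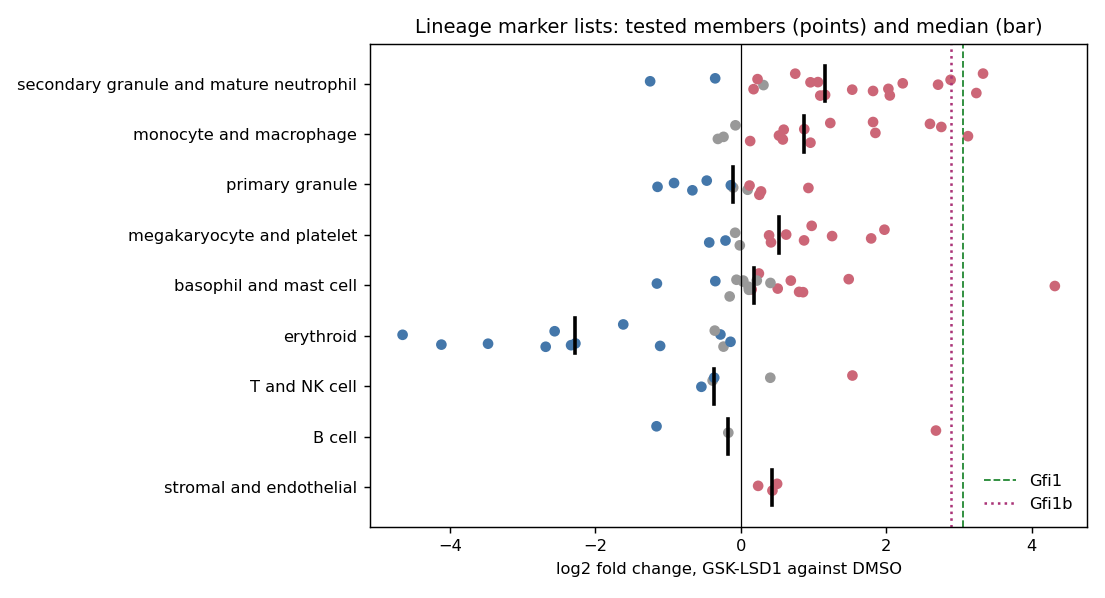
Fitted log2 fold change, GSK-LSD1 against DMSO, of tested genes in 9 lineage marker lists (red, higher; blue, lower; grey, not past the threshold) with the median of each list as a bar. The dashed and dotted lines mark Gfi1 and Gfi1b. The neutrophil and monocyte lists have their medians at 1.16 and 0.87, and the erythroid list at -2.28, or -0.36 without 6 genes that passed the filter on low values through DMSO libraries alone. A few single markers reach the level of Gfi1 and Gfi1b.

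The depth behind these values was alike in all 6 libraries. The total of scaled values per library was 9877460 to 10107885, and 13879 to 14106 genes had a value above 0. Taken as multiples of each library's lowest value above 0, they correspond to 9572638 to 10199533 reads. Gfi1b made up 0.00627% to 0.00672% of the total with DMSO and 0.0467% to 0.0496% with GSK-LSD1. Gfi1 made up 0.000614% to 0.000709% and 0.00542% to 0.00568%.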

How the data were processed

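RNA-seq libraries of 3 DMSO and 3 GSK-LSD1 samples of mouse leukemia cells were compared, assigned by their titles. The deposited values are a normalised signal, 1 per gene symbol and library: every value was a whole multiple of the library's smallest value within 0.02, as for read counts divided by 1 factor per library. The submitters' processing notes list STAR, DESeq2, mm10 and GRCm38 but give no versions or roles. Which program counted reads, on which annotation and strand, is not given in the sources used here. Of 15035 rows, 22 symbols had become dates and are not named, and 1 symbol occurred more than once. All 6 value columns belonged to a labelled sample.

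Genes with a value of at least 10 in at least 3 libraries were tested, which kept 11588 and left out 3447. Values were moved to log2(value + 1) and fitted with limma 3.58.1 in R 4.3.3, using a mean-variance trend and no block. Tests were two-sided, Benjamini-Hochberg adjusted over the 11588 genes, with a threshold of 0.05. Such fold changes understate those of low genes. The log2 fold changes of the text are on that scale, and folds such as 1.27-fold are ratios of group means. The fit was tested on simulated data. Exon lengths and positions are from GENCODE M21 (GRCm38). Promoter windows are from RefSeq. Read numbers and counting errors take each library's lowest value above 0 as 1 read and cover counting error only.

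The members and 14 gene lists (231 genes, 19 of them in more than 1 list) were chosen with earlier results of these data known, so a list's direction is not independent evidence. Lists are described by counts and medians, with no set test. Named were the 2 genes, list members with the largest changes (all members of the 5 lists around GFI1 where useful), the 6 closest profiles, the 3 nearest measured genes on each side and the 3 genes above and below in the order. Alternatives were other pseudocounts, filters and scaling, a replicate block, and leaving out each library.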

Additional observations from a re-analysis of the deposited data

How the results depend on the processing

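The log2 fold change of Gfi1b was 2.87 to 2.92 and that of Gfi1 3.02 to 3.13 when 1 library was left out. Gfi1 moved to 2.96 under quantile scaling, by more than the spread between replicates. Over the whole table, 1938 to 2363 genes were higher and 1951 to 2262 lower when 1 library was left out. Among 172 named genes with a test, 116 passed, of which 16 lost the call in at least 1 alternative, 12 others gained one and 0 changed direction. Leaving out 1 library gave 1 to 3 falls among LSD1 partners, 1 to 3 among GFI1 targets, 0 to 1 among monocyte genes, 4 to 11 among erythroid genes and 1 to 2 among megakaryocyte genes, and 0 to 1 rises among B cell genes. With a mean of 50 or more, which tests fewer genes, the falls were 0 for the SNAG family, 1 for secondary granules, 2 for erythroid genes and 0 for B cell genes, and the rises were 3 for GFI1 targets, 0 for T and NK cell genes and 0 for B cell genes. Without genes that passed the filter through 1 group alone, an alternative added after seeing the data, 5 erythroid genes fell and 0 B cell genes rose. With no filter, 2 T and NK cell genes rose. Under quantile scaling, 2 monocyte genes fell, and the cause was not tested. With the other measure of likeness, 1 of the 6 genes closest to Gfi1 was shared.

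The labels number the libraries 1 to 3 in both groups. Deviations of libraries with the same number had correlations of 0.0414, -0.0307 and 0.0161 over 9852 genes, so the numbers were not taken to pair the samples, and not every library correlated best with its own number. With the replicate block 2345 genes were higher and 2316 lower, against 2389 and 2373 without it, and the log2 fold changes of Gfi1 and Gfi1b were 3.06 and 2.89 as before.

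The planned count models, edgeR and DESeq2, were not run, because the scaling factors of 2 DMSO libraries were too near 1 for a check of the recovered reads. Meis1 and other genes under the filter were not tested, so nothing is said of their change at this depth.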
